A study of Mus musculus with 16 samples.

Results

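Olfr1394, Olfr1395 and Olfr1396 are 3 mouse odorant receptor genes that lie close together on chromosome 11. They were singled out, with results of these arrays in view, as neighbours whose enrichment in sorted active neurons was larger after an odor than without it. Each of them is measured by 1 probe set, so the 3 members are 3 of the 1080 odorant receptor probe sets and of 22206 probe sets tested in all. The values that chose them, the differences between the 4 groups of arrays, are given below as descriptions and without a test.

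RNA on the arrays came from sorted cells of the olfactory mucosa of 24 mice of both sexes, 7 to 12 weeks old. All mice, in the control groups too, carried the S100a5-tauGFP reporter, and the labels used here name no strain. The mice formed 8 pools of 3, of which 4 were exposed to the odorous thiol 1-pentanethiol and 4 to filtered air (vehicle), in pulses of 10 s every 20 min from 26 h to 40 h in clean air chambers. Each pool gave 1 array of GFP-positive (GFP+) and 1 of GFP-negative (GFP-) cells, which makes 4 arrays per group, and each array stands for 3 pooled animals. The series' design text names bourgeonal as the odor, whereas its title and the sample labels name 1-pentanethiol, and the labels were followed.

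Odorant receptors are G protein-coupled receptors in the cilia of olfactory sensory neurons. Each neuron transcribes mainly a single receptor gene, and a bound odorant acts through the G protein subunit Gnal, the cyclase Adcy3 and a cyclic nucleotide-gated channel. Transcription of S100a5, which encodes a protein that binds calcium, depends on the activity of the neuron, so GFP in this reporter marks neurons that were recently active. The assay therefore reads the transcript of a receptor as a tag for the neurons that express it, and compares its level in GFP+ and GFP- cells with and without the odor. In RNA of sorted cells, fewer neurons with a receptor and less receptor RNA per neuron cannot be told apart.

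In the order of the annotation, Olfr1396 is the first odorant receptor gene of chromosome 11, followed by Olfr56, Olfr1395 and Olfr1394, with no other gene between them. Olfr56 was not analysed here, since no probe set carries its name. After Olfr1394 come 5 genes that are no receptors, among them Btnl9 and Mgat1, and then the receptors Olfr1393, Olfr1392 and Olfr10. The members carry the names of different mouse receptor families, which are defined by sequence similarity: Olfr1396 is MOR276-2, Olfr1395 is MOR277-1 and Olfr1394 is MOR280-1, whereas Olfr1393, Olfr1392 and Olfr10 all belong to MOR256. Olfr56, the receptor between Olfr1396 and Olfr1395, is MOR276-1 and so carries the family name of Olfr1396. The annotated gene models are 981 bases long for Olfr1396, 954 for Olfr1395 and 939 for Olfr1394.

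The sequences that lead into the coding region are shown for the 2 members with an entry, because the receptors share a neighbourhood but not a family. Each run holds 250 bases before and 50 bases from the annotated start, 5′ to 3′, from RefSeq on GRCm38.p6. Capitals mark the ATG at the annotated start and any motif found.
Olfr1394 (chr11:49159766-49160065, + strand): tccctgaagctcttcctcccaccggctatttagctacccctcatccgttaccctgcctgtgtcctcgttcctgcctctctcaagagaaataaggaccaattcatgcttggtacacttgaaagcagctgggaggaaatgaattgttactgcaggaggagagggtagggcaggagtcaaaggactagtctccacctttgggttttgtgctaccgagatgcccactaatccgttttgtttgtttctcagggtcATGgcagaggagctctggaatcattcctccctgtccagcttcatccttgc
Olfr1396 (chr11:49113708-49114007, - strand): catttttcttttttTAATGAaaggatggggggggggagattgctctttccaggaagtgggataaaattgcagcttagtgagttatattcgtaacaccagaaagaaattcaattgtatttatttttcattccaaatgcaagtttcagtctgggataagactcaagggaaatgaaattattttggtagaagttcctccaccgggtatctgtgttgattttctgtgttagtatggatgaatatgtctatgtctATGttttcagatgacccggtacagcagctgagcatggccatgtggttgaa
The genes are transcribed from opposite strands. The motifs searched on both strands were CCCNNGGG, the core of the Olf1/Ebf site of olfactory genes, the homeodomain cores TAATTA and TAATGA, and the TATA box TATAAA. The search found 1 match, TAATGA at 236 bases before the start of Olfr1396, and 28.8% of 944 odorant receptor windows and 9.8% of all 32851 windows of this length held that motif. The Olfr1394 window held none of the 4 motifs. CCCNNGGG occurred in 3.1% of receptor windows, TAATTA in 18.6% and TATAAA in 41.2%. Since 72.6% of the receptor windows have ATG at the annotated start, many of them start at the coding region, and a noncoding first exon, where a gene has one, would lie outside. A match is a description of these letters and not of a bound site.

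The reporter gene serves as a check of the sort. S100a5 was higher in GFP+ cells, by 0.93 ± 0.09 as an average of both stimuli (log2 ± SE from the model, limma adjusted p = 1.3e-07). Omp, which nearly all mature olfactory neurons express, differed by 0.04 ± 0.07 in that average (limma adjusted p = 0.644). With array medians set equal, the median of that average over all probe sets moved by 0.337, so the small Omp difference rests on the scaling of the deposited values. The mean log2 signal of 10 mature neuron markers lay between 16.85 and 17.18 on every array, so these markers were high in both fractions. A GFP+ array, that of vehicle pool 2, stood apart in its negative controls, whose median signal was 7.28 there and 5.99 to 6.48 elsewhere, and the members' gains are also given without it. Values below are log2 signals of probe sets, SDs are over 4 arrays, and differences are on the log2 scale ± SE from a model of all 16 arrays.

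Olfr1395 was the member whose signal in GFP+ cells differed most with the odor. In vehicle pools 1 to 4 its log2 signal was 14.48, 14.12, 14.21 and 14.66 in GFP- cells and 11.96, 11.01, 11.24 and 11.72 in GFP+ cells. In odor pools 1 to 4 it was 14.26, 13.91, 13.86 and 13.78 in GFP- cells and 14.14, 14.02, 13.89 and 14.72 in GFP+ cells. The 4 vehicle GFP+ arrays thus stood apart below all other arrays, and the remaining 3 groups overlapped. By group mean the order was vehicle GFP- (14.37 ± 0.25), odor GFP+ (14.19 ± 0.36), odor GFP- (13.95 ± 0.21) and vehicle GFP+ (11.48 ± 0.44), and the neighbours in this order overlapped except for the last. Without the odor the signal was therefore lower in the active cells, with a GFP+ minus GFP- difference of -2.88 ± 0.22, and with the odor the difference was 0.24 ± 0.22 (95% interval -0.22 to 0.69). The signal in GFP+ cells was higher with the odor by 2.71 ± 0.22, 6.53-fold, and that in GFP- cells differed by -0.41 ± 0.22 (95% interval -0.87 to 0.04). Of the 1080 receptors 2 had a larger odor difference in GFP+ cells.

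Olfr1396 differed with the odor in both fractions, in opposite directions. Its log2 signal in vehicle pools 1 to 4 was 12.67, 12.70, 12.55 and 12.77 in GFP- cells and 13.24, 12.37, 12.86 and 12.25 in GFP+ cells. In odor pools 1 to 4 it was 11.48, 11.84, 11.74 and 11.58 in GFP- cells and 13.82, 13.53, 13.58 and 13.95 in GFP+ cells. The 2 vehicle groups overlapped, every odor GFP+ array lay above them and every odor GFP- array lay below them. By group mean the order was odor GFP+ (13.72 ± 0.20), vehicle GFP+ (12.68 ± 0.45), vehicle GFP- (12.68 ± 0.09) and odor GFP- (11.66 ± 0.16), with no overlap except between the middle groups. Without the odor the transcript showed a GFP+ minus GFP- difference of 0.01 ± 0.18 (95% interval -0.38 to 0.39), and with the odor one of 2.06 ± 0.18, 4.17-fold. The odor differences were 1.04 ± 0.18 in GFP+ and -1.02 ± 0.18 in GFP- cells.

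Olfr1394 differed with the odor mainly in GFP- cells. Its log2 signal in vehicle pools 1 to 4 was 7.86, 7.85, 7.22 and 8.27 in GFP- cells and 8.27, 8.02, 9.0 and 8.92 in GFP+ cells. In odor pools 1 to 4 it was 5.20, 5.40, 5.90 and 5.61 in GFP- cells and 8.87, 8.90, 7.40 and 9.62 in GFP+ cells. The 4 odor GFP- arrays stood below all other arrays, and the remaining groups overlapped, with odor GFP+ pool 3 among the vehicle GFP- values. By group mean the order was odor GFP+ (8.70 ± 0.93), vehicle GFP+ (8.55 ± 0.48), vehicle GFP- (7.80 ± 0.44) and odor GFP- (5.53 ± 0.30). The GFP+ minus GFP- difference was 0.75 ± 0.36 without the odor (95% interval -0.02 to 1.52) and 3.17 ± 0.36 with it. The odor difference was 0.14 ± 0.36 in GFP+ cells (95% interval -0.62 to 0.91) and -2.28 ± 0.36 in GFP- cells as measured.

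All 4 odor GFP- arrays of Olfr1394 lay under the negative control median of their own array, which was 6.04 to 6.10, so this level is a bound. Against that floor its signal was at least 6.15-fold higher in GFP+ than in GFP- cells of the odor pools, and at least 3.31-fold higher in GFP- cells of the vehicle pools than in those of the odor pools. Olfr1395 and Olfr1396 lay above 11 on every array, well over the negative control medians.

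**Figure D1:**
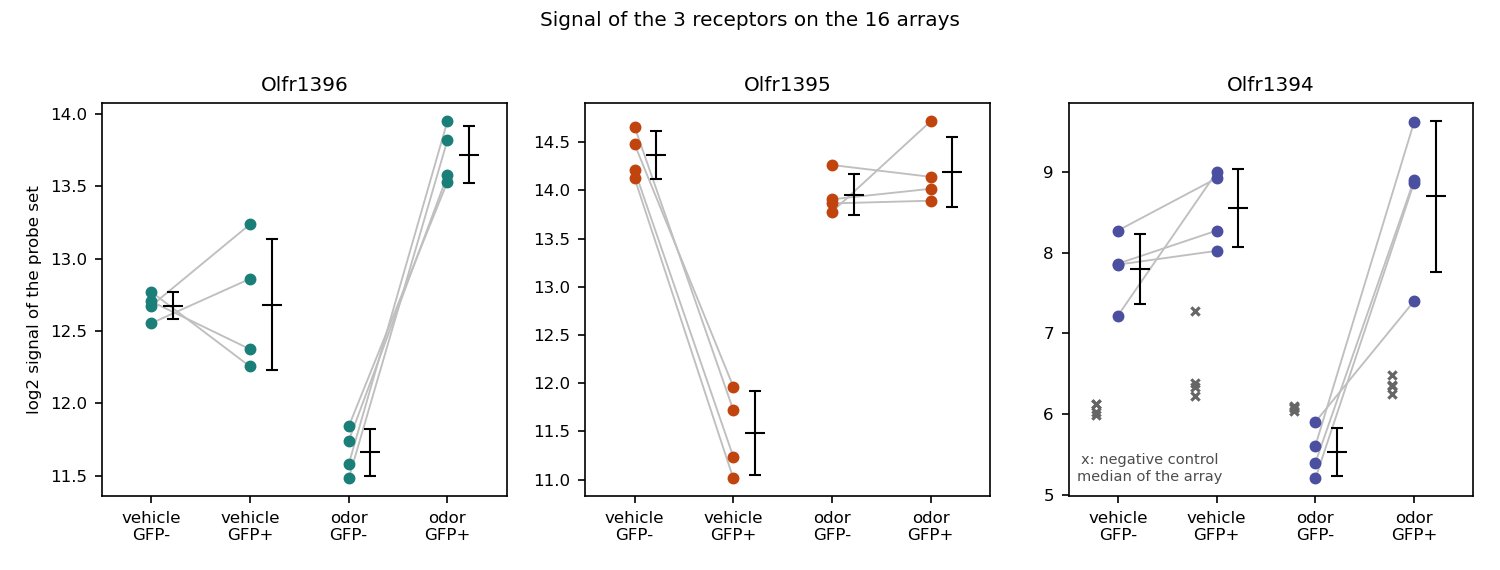
Log2 signal of Olfr1396, Olfr1395 and Olfr1394 on the 16 arrays, by group (x axis). Points are arrays, grey lines join the GFP- and GFP+ arrays of a pool, and black marks give the mean ± SD (n = 4); the vertical axes differ and do not start at 0. The vehicle GFP+ arrays of Olfr1395 (11.01 to 11.96) and the odor GFP- arrays of Olfr1394 (5.20 to 5.90) stand below the other arrays of the gene, and the latter lie under the negative control medians drawn as crosses.

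The assay's own readout is the gain of GFP+ enrichment, which is how much larger the GFP+ minus GFP- difference was with the odor than without it. It was 3.12 ± 0.30 for Olfr1395 (8.70-fold), 2.42 ± 0.51 for Olfr1394 (5.35-fold) and 2.05 ± 0.26 for Olfr1396 (4.15-fold). The members were chosen for this contrast, so it is a description. Of all probe sets 0.0630% passed as higher in the gain (14, limma adjusted p under 0.05), Olfr1395 and Olfr1396 among them and Olfr1394 not, and since the members were chosen for this contrast nothing is read from that count. The lowest gain inside the set was 1.52 (Olfr31), and the gain of Olfr1394 lay outside it. With values under the negative control median of an array raised to it, the gain of Olfr1394 was 1.87. Without the GFP+ array of vehicle pool 2 the gains were 2.96, 2.24 and 1.95 for Olfr1395, Olfr1394 and Olfr1396. For comparison, the median gain was 0.01 over all probe sets and -0.17 over odorant receptors.

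The gains were made up differently. Of the gain of Olfr1395, 86.7% was the odor difference in GFP+ cells and 13.3% that in GFP- cells. For Olfr1396 the parts were 50.5% and 49.5%, and for Olfr1394 they were 5.95% and 94.0%. The 95% intervals of the odor difference in GFP+ cells were 2.25 to 3.16 for Olfr1395, 0.66 to 1.42 for Olfr1396 and -0.62 to 0.91 for Olfr1394. In GFP- cells the interval was -1.40 to -0.63 for Olfr1396 and, as measured, -3.04 to -1.51 for Olfr1394. The Olfr1394 difference was -1.73 with the floor at the negative control medians. These values are part of the contrast that chose the members, so no order of the genes is read from the intervals. Differences between genes were not tested.

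**Figure D2:**
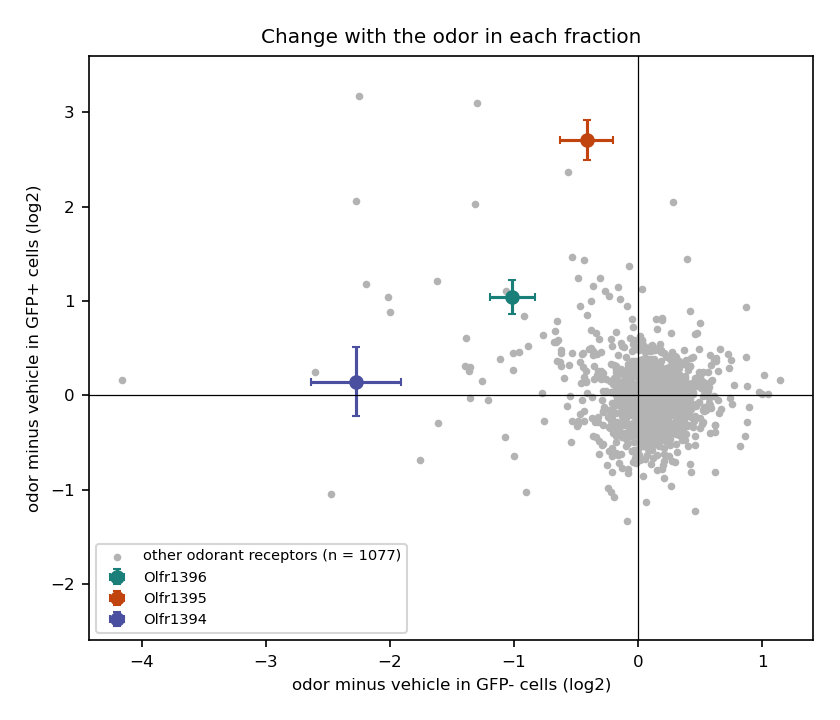
Odor minus vehicle difference in GFP- cells (x axis, log2) and in GFP+ cells (y axis, log2) for the 3 members (coloured, ± SE) and the other odorant receptors (grey). Olfr1395 lies at 2.71 on the GFP+ axis and -0.41 on the GFP- axis, Olfr1394 at 0.14 and -2.28, and Olfr1396 at 1.04 and -1.02.

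Within single pools the GFP+ minus GFP- difference showed how far the pools agreed. For Olfr1395 it was -2.51, -3.11, -2.97 and -2.94 in vehicle pools 1 to 4 and -0.12, 0.11, 0.03 and 0.94 in odor pools 1 to 4. For Olfr1396 it was 0.56, -0.33, 0.31 and -0.52 in the vehicle pools and 2.34, 1.69, 1.84 and 2.37 in the odor pools. For both genes all odor pools lay above all vehicle pools. For Olfr1394 it was 0.41, 0.17, 1.78 and 0.65 in the vehicle pools and 3.67, 3.51, 1.50 and 4.01 in the odor pools, so that vehicle pool 3 lay above odor pool 3. Without odor pool 3 the gain of Olfr1394 was 2.98 and without vehicle pool 3 it was 2.76. Each other pool left out gave less than the 2.42 of all pools, down to 2.14 without odor pool 4.

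**Figure D3:**
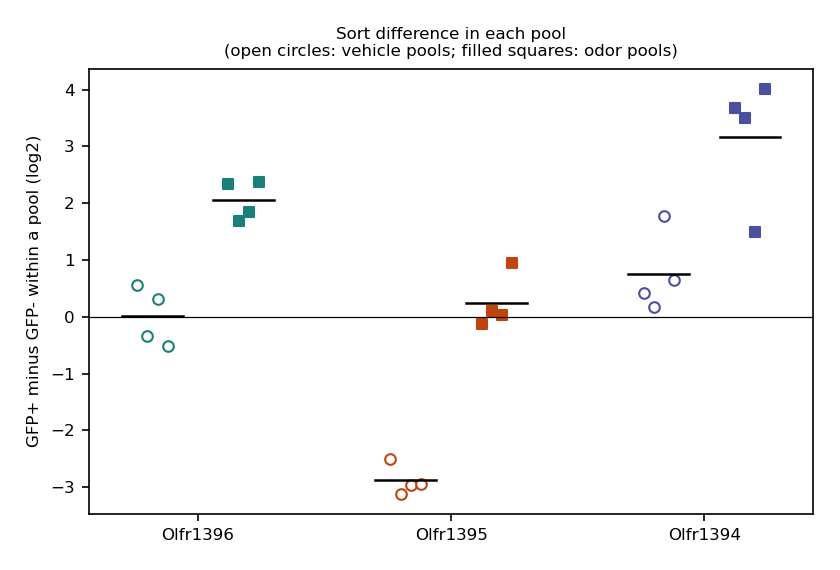
GFP+ minus GFP- difference of log2 signal within each pool (y axis) for the 3 members, with vehicle pools as open circles and odor pools as filled squares; bars are means of 4 pools. Vehicle and odor pools do not overlap for Olfr1396 and Olfr1395, and overlap for Olfr1394 through vehicle pool 3 (1.78) and odor pool 3 (1.50).

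The comparisons of 4 against 4 arrays can be set beside those of all probe sets. The odor and vehicle arrays did not overlap in GFP+ cells for 2 of the 3 members, Olfr1395 and Olfr1396, and for 2.86% of all probe sets. In GFP- cells they did not overlap for 2 members, Olfr1394 and Olfr1396, and for 2.61% of all probe sets. GFP+ and GFP- arrays of the odor pools did not overlap for Olfr1394 and Olfr1396 (26.8% of all probe sets), and those of the vehicle pools for Olfr1395 (23.7%). These comparisons share arrays with each other and with the contrast that chose the members, so nothing is read from the counts.

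Averages that are orthogonal to the gain were tested. With groups of equal size and spread, the errors of their estimates do not depend on the error of that gain. The tests share its estimate of the spread. Where a single group carries a difference, that difference enters both an average and the gain that chose the members. The SDs of the groups were unequal, from 0.30 to 0.93 for Olfr1394, from 0.21 to 0.44 for Olfr1395 and from 0.09 to 0.45 for Olfr1396. The averages are therefore not fully independent of the choice of the members. Averaged over both stimuli, the GFP+ minus GFP- difference was 1.96 ± 0.26 for Olfr1394 (3.90-fold, limma adjusted p = 9.81e-06), 1.03 ± 0.13 for Olfr1396 (2.05-fold, limma adjusted p = 5.15e-06) and -1.32 ± 0.15 for Olfr1395 (limma adjusted p = 2.04e-06). All 3 members passed, where 38.0% of all probe sets (22.9% higher, 15.1% lower) and 74.4% of odorant receptors (44.0% higher, 30.4% lower) did, so a call is no distinction among receptors here. With the floor at the negative control medians the Olfr1394 value was 1.69. Olfr1394 was higher in GFP+ cells in 8 of 8 pools (exact sign-flip permutation test over pools, two-sided p = 0.00781, the smallest it can give). Olfr1396 was higher in 6 of 8 pools (exact p = 0.0625, unadjusted) and Olfr1395 in 3 of 8 (exact p = 0.102, unadjusted). The sign flips ran over the pools of both stimuli together, so the gap between odor and vehicle pools, which chose the members, enters this test. It cannot show whether pools of the same stimulus disagreed. With the pool as a fixed block the limma adjusted p was 0.000147 for Olfr1396 and 9.21e-06 for Olfr1395. For Olfr1395 and Olfr1396 the average combines 2 unlike sorts, as the values by pool show. The Olfr1396 difference was 2.06 with the odor and 0.01 without it. The odor pools thus carry its average as well as its gain, and its p is not separate from the contrast that chose it. For Olfr1395 the difference was -2.88 without the odor and 0.24 with it, and the same holds with the vehicle pools.

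Other cells were sorted apart by the same gate, and their markers moved with the sort. Of the fixed marker lists, 7 of 7 neutrophil genes, 4 of 4 of microvillar cells, 4 of 4 measured genes of cycling and globose basal cells, 5 of 6 of sustentacular cells, 3 of 5 measured macrophage genes and 4 of 8 of immature neurons were lower in GFP+ cells in the average sort difference. The mean log2 signal of the neutrophil genes was 14.96 to 16.15 on GFP- and 6.98 to 8.77 on GFP+ arrays. Their part in the sort differences of the members was not tested. With array medians set equal the split of all calls in this average went from 5085 higher and 3346 lower to 16424 and 2316, and with receptor medians set equal to 1076 and 3751, while the members kept their directions.

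Averaged over both fractions, the odor change was called for 1 of the 3 members, as higher, where 0.0405% of all probe sets (0.0225% as higher) and 0.463% of odorant receptors (0.0926% as higher) passed. Olfr1395 was higher with the odor by 1.15 ± 0.15 (2.21-fold, limma adjusted p = 0.00342). Its pool means of both fractions were 13.88 to 14.25 with the odor and 12.57 to 13.22 without it, so all 4 odor pools lay above all 4 vehicle pools (exact permutation test over pools, two-sided p = 0.0286, the smallest it can give). Of the 1080 receptors 1 had a larger average odor change. The Olfr1395 average combines unlike fractions, with odor differences of 2.71 ± 0.22 in GFP+ and -0.41 ± 0.22 in GFP- cells. It gives both fractions equal weight and is not a rise in each of them. The GFP+ difference of 2.71 also makes up most of the gain of Olfr1395. Neither p of this average is therefore separate from the contrast that chose the gene. Olfr1394 had an average of -1.07 ± 0.26 that did not pass (limma adjusted p = 0.594), and its pool means, 6.65 to 7.61 with the odor and 7.94 to 8.60 without it, did not overlap (exact permutation test, two-sided p = 0.0286). With the floor at the negative control medians this average was -0.79. The GFP- difference that makes up most of the gain of Olfr1394 enters this average too. For Olfr1396 the average was 0.01 ± 0.13 (95% interval -0.26 to 0.28, limma adjusted p = 0.999). The lists of other cell types had 0 genes past the threshold by limma in the gain and in the average odor change. Of all probe sets 0.0630% and 0.0405% passed there. At an unadjusted p under 0.05 they had 0 in the gain, and 2 of 5 macrophage genes were lower in the average odor change. Of 5 activity-dependent genes Pcdh10, which encodes a protocadherin, was higher in the average odor change, by 3.64 ± 0.27 (limma adjusted p = 5.49e-06).

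The nearest receptors on the chromosome were described in the same way. Olfr1393, the next receptor after Olfr1394, had a gain of 0.25 ± 0.42 (limma adjusted p = 0.999), Olfr1392 one of -0.51 ± 0.44 and Olfr10 one of -0.26 ± 0.44. In GFP+ cells their odor differences were 0.31 ± 0.29, -0.16 ± 0.31 and 0.36 ± 0.31, and in GFP- cells 0.06 ± 0.29, 0.35 ± 0.31 and 0.63 ± 0.31. Over the 10 nearest measured receptors, Olfr1393 to Olfr1385, gains ran from -0.51 to 0.56 with a median of -0.11. In the gain 0 of 10 passed by limma, where 1.30% of all odorant receptors did, and 0 had an unadjusted p under 0.05. With a share this low, the limma count is no result about these receptors. The upper 95% limit was highest for Olfr1386, at 1.44. Since the members were chosen for their gain and the neighbours were not, the distance between them was not tested.

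In the average sort difference 2 of these 10 neighbours passed as higher and 3 as lower. Of all odorant receptors 44.0% passed as higher and 30.4% as lower, so nothing is read from these counts. Averaged over both stimuli, Olfr1389 (1.95 ± 0.26) and Olfr1388 (0.80 ± 0.19) were higher in GFP+ cells, and Olfr1391 (-1.31 ± 0.17), Olfr1392 (-0.83 ± 0.22) and Olfr1385 (-0.62 ± 0.17) were lower, at the highest with limma adjusted p = 0.00922. In the average odor change 0 of the 10 passed by limma, beside 0.463% of all odorant receptors, and 1, Olfr10, was higher at an unadjusted p under 0.05 (0.50 ± 0.22). Of all 75 other measured receptors of chromosome 11, these 10 neighbours included, 4 passed in the gain, which is 5.33%, beside 1.30% of all odorant receptors. The 4 were Olfr328, Olfr224, Olfr330 and Olfr325, all farther along the chromosome than the 10 neighbours. Their gains were 5.42 ± 0.71, 4.34 ± 0.67, 3.37 ± 0.33 and 3.05 ± 0.33, and they were named after their values were seen.

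**Figure D4:**
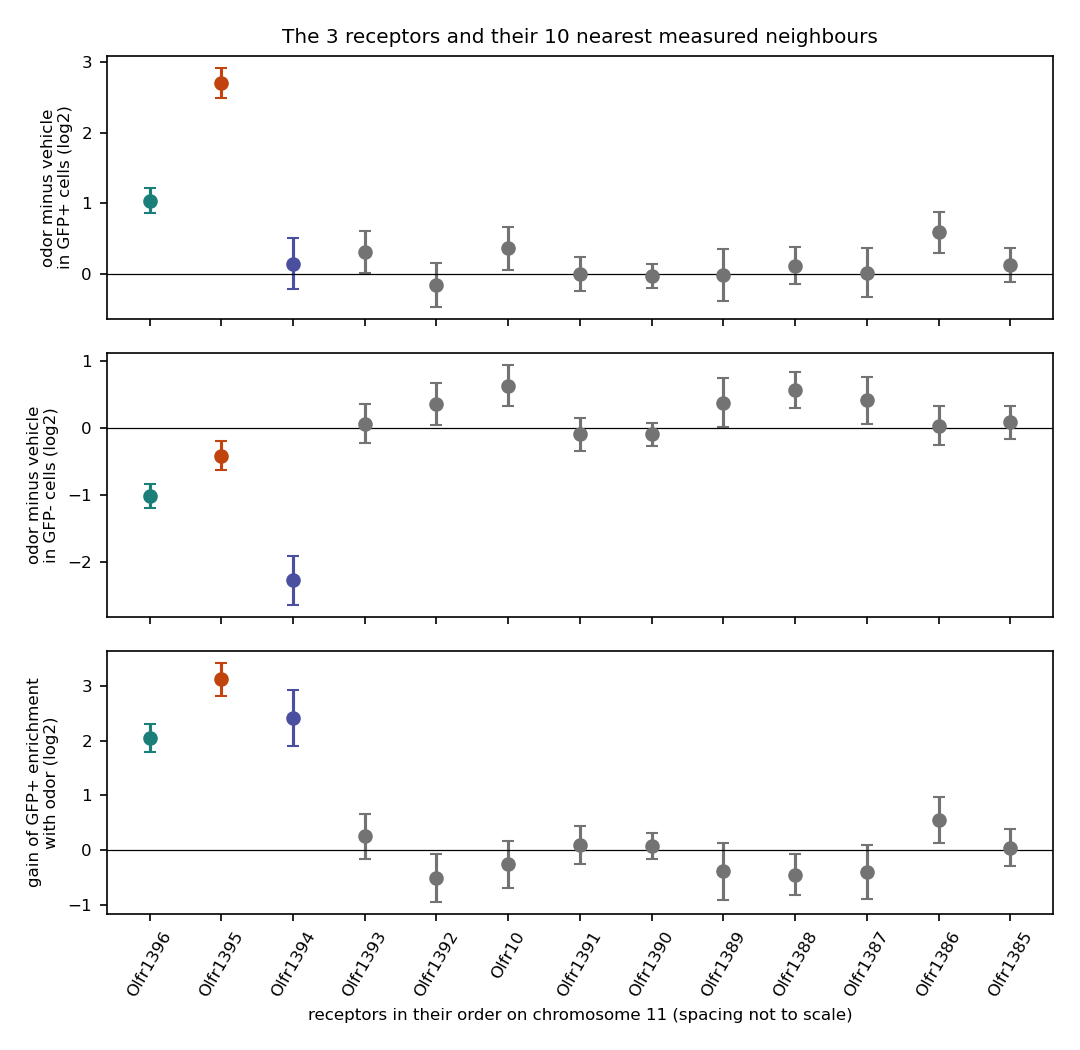
Odor minus vehicle difference in GFP+ cells (top), in GFP- cells (middle) and the gain of GFP+ enrichment (bottom), log2 ± SE, for the 3 members (coloured) and the 10 nearest measured receptors (grey) in their order on chromosome 11, with spacing not to scale. Gains of the members are 2.05 to 3.12 and those of the neighbours -0.51 to 0.56.

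By the correlation over the 16 arrays with the mean of the members, each centred on its own mean, the genes with the most similar pattern were Olfr1193 (r = 0.926), Olfr1427 (0.869), Olfr1189 (0.865), Olfr328 (0.846) and Olfr1212 (0.844). The 16 arrays form 4 groups and share their pools, so r follows the group means. Olfr1193 differed with the odor by 2.03 ± 0.26 in GFP+ and -1.31 ± 0.26 in GFP- cells, and Olfr1189 by 1.11 ± 0.34 and -1.06 ± 0.34. Olfr1212 differed by 1.21 ± 0.23 and -1.62 ± 0.23, and Olfr1427 by 0.56 ± 0.22 and -0.68 ± 0.22. Of the members themselves Olfr1396 followed the mean with r = 0.894, Olfr1394 with 0.755 and Olfr1395 with 0.420. Each member is part of that mean, which raises these values. Between members r was 0.809 for Olfr1394 with Olfr1396, 0.0976 for Olfr1395 with Olfr1396 and -0.254 for Olfr1394 with Olfr1395. Taken singly, a comparison added after the values were seen, Olfr1394 was most like Olfr1284 (r = 0.923), Olfr1395 most like Olfr183 (r = 0.894) and Olfr1396 most like Olfr1212 (r = 0.926), so that no gene led for more than 1 member.

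The machinery that receptors use was measured by 22 of 25 listed genes of olfactory transduction and receptor trafficking. In the gain 0 of 22 passed by limma, where 0.0630% of all probe sets did, and 0 had an unadjusted p under 0.05. Their median gain was 0.00 and their range -0.35 to 0.31. In the average odor change 0 of 22 passed, where 0.0405% of all probe sets did, likewise with 0 at an unadjusted p under 0.05. Values ran from -0.12 to 0.22. With shares this low, the limma counts of 0 are no result about these genes. In the average sort difference 11 of 22 were higher and 1 lower, where 22.9% of all probe sets were higher and 15.1% lower. Their median was 0.20 beside 0.14 over all probe sets. Slc8a1, a sodium-calcium exchanger, was higher in GFP+ cells by 0.96 ± 0.12 (limma adjusted p = 8.13e-06), the phosphodiesterase gene Pde1c was higher by 0.65 ± 0.07 (limma adjusted p = 9.52e-07), and Grk3, a kinase that desensitizes odorant receptors, had a difference of -0.81 ± 0.12 (limma adjusted p = 2.61e-05). The Grk3 group means were 5.36 to 6.20, and in GFP+ cells both lay under every negative control median, so its value rests on signals at background. Camk4, which is among the 11 higher genes, had group means of 5.63 to 6.22. Each lay under the negative control medians of its group, so that call rests on such signals too. The receptor chaperone genes Rtp1 and Rtp2 differed by 0.12 ± 0.07 and 0.21 ± 0.11, short of the threshold (limma adjusted p = 0.205 and 0.145). Setting array medians equal moved the median of this average over all probe sets by 0.337, and setting receptor medians equal moved it by -0.145. Differences as small as those of Rtp1 and Rtp2, and their calls, therefore depend on the scaling.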

How the data were processed

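RNA of sorted olfactory mucosa cells was hybridized to 16 Clariom S mouse arrays. The authors deposited log2 signals per probe set. Affymetrix Expression Console is named in the submitters' processing notes, with version, algorithm and normalization not given in the sources used here. Of 28846 features, 22206 outside the control classes were tested, 19572 with 1 gene symbol. The 5222 negative control entries served as a floor.

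A linear model with 4 group means was fitted in limma 3.58.1 (R 4.3.3) over the 16 arrays (empirical Bayes, 16.66 total degrees of freedom), without further scaling, filter or block. Tests were two-sided with Benjamini-Hochberg adjustment over 22206 probe sets and a threshold of 0.05. The fit was tested on simulated data. Exact permutation tests ran over pools. Precision is limited by the number of arrays.

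The 2 arrays of a pool come from the same mice; their deviations from group means correlated with r from 0.0119 to 0.224. For same-numbered odor and vehicle arrays r was 0.0311 to 0.256 (GFP+) and 0.186 to 0.29 (GFP-).

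Members and lists were chosen with earlier results of these data known. Besides the members, text names the 3 nearest receptors on each side (there are none before Olfr1396), the 5 genes most like the members, S100a5, Omp, and transduction genes with the 3 largest called differences. Other neighbours, Pcdh10, Camk4, Rtp1 and Rtp2 were named after their values were seen. Receptor order, names and windows come from the supplied RefSeq tables (GRCm38.p6). Protein relatives were not analysed here. Alternatives covered scaling, filter, weights, moderation, block, exact tests and left-out pools.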

Additional observations from a re-analysis of the deposited data

Results flagged for a closer look

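For Olfr1396 every odor array lay above every vehicle array in GFP+ cells and below every vehicle array in GFP- cells. The odor difference of GFP+ cells less that of GFP- cells was 2.05, which is the gain that chose the gene, so this difference was not tested. No array or pool of the 3 members stood apart from its group of 4 by Dixon's criterion, over 12 groups of arrays and 6 sets of pool differences.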

How the results depend on the processing

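Of 210 values recomputed for the 3 members and for the counts of calls, 199 kept their direction and their side of the threshold, or stayed within the spread of the pools or 1.5 times the count. The blocks, the filter and the moderation leave the members' estimates unchanged by design, and gains were labelled by their estimate alone. The 199 therefore include values that could not move. Gains were 2.14 to 2.98 for Olfr1394, 2.89 to 3.29 for Olfr1395 and 1.88 to 2.24 for Olfr1396 over the refitted alternatives, and 1.87 for Olfr1394 with the floor at the negative control medians; leaving out each pool in turn gave 2.14 to 2.98, 2.89 to 3.24 and 1.88 to 2.24. With the replicate number as a block, the average odor change of Olfr1395 had adjusted p = 0.000997, and with the pool as a random block adjusted p = 0.00531; no block changed a call of a member in the average sort difference or the average odor change. In the gain 17 probe sets passed with the replicate number and 14 with the pool as a fixed block. Over all fits the average odor change of Olfr1395 had adjusted p = 0.000288 to 0.0315. This average shares its GFP+ difference with the gain that chose the gene. With receptor medians set equal 22 probe sets passed in the gain and 4827 in the average sort difference; with array medians set equal, which moved the median of the sort by 0.337, 18740 did. In the exact tests over pools the average sort difference had unadjusted p = 0.102 for Olfr1395 (-1.32) and 0.0625 for Olfr1396 (1.03). These sign flips mix the stimuli, so the gain that chose the members enters them. The average odor change of Olfr1394 (-1.07) had an unadjusted exact p = 0.0286, with limma adjusted p = 0.0956 to 0.999 over the fits. The average odor change of Olfr1396 had no stable sign: it was -0.0055 with array weights, -0.0403 without the GFP+ array of vehicle pool 2 alone, an alternative added after seeing the data, and -0.0443 to 0.1035 with each pool left out. Signals near the negative controls limit the sizes for Olfr1394.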
